A study of Arabidopsis thaliana with 12 samples.

Results

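The root cap regulators and cell death genes described here are 10 genes of Arabidopsis thaliana, listed by locus, out of 33602 loci in the table of raw read counts. The regulators are the 4 NAC transcription factor genes BEARSKIN1 (BRN1), BEARSKIN2 (BRN2), SOMBRERO (SMB) and FEZ. The cell death genes are the 6 genes BFN1, RNS3, PASPA3, SCPL48, DMP4 and EXITUS1 (EXI1), which are used as markers of developmental cell death. The study asked, as its title puts it, how the transcription factor MYB36 acts where root cells stop dividing and differentiate. It sequenced RNA in 4 groups of 3 biological replicates, 12 libraries in all: endodermis sorted from wild-type roots, endodermis sorted from myb36-1 roots, whole wild-type roots and whole myb36-1 roots. Both genotypes are in the Col-0 background per the labels, and all seedlings were taken 6 days after exposure to light. Endodermal cells were obtained by digesting roots to protoplasts and collecting them by fluorescence-activated sorting, whereas whole roots were frozen directly. The fluorescent line used for the sort, the nature of the myb36-1 lesion and the number of plants behind a replicate were not given in the sources used.

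The root cap is the sheath of columella and lateral root cap cells that covers the growing tip and lies outside the epidermis. FEZ promotes the divisions that renew the cap, and SMB, BRN1 and BRN2 act together in the maturation of its cells, BRN1 and BRN2 also in the release of the outer layers. In the lateral root cap, SMB is required for a programmed death at the upper edge of the cap, in which genes for nucleases, ribonucleases and proteases are switched on and the dead cells are cleared, and the same marker genes are also active in other dying cells such as maturing xylem vessels. The endodermis, in contrast, is an inner layer that stays alive and builds the Casparian strip, so these genes are not part of the usual description of that tissue.

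The sequences just upstream of BFN1, RNS3 and PASPA3 are printed here. The reason is that these cell death genes had nearly equal fitted changes in mutant sorted endodermis and NAC factors are known to act on such genes. All are the 250 bases before the RefSeq gene start in TAIR10.1, read 5′ to 3′ on the strand of the gene. Capitals mark matches to the secondary wall NAC binding element (SNBE), a degenerate motif of 19 letters known from xylem NAC factors.
BFN1 chr1:3752781-3753030, minus strand: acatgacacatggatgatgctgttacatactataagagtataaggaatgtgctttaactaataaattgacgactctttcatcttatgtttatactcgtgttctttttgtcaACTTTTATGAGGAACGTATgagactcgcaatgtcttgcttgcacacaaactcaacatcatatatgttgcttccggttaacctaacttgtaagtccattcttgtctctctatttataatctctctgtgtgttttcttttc
RNS3 chr1:9293863-9294112, minus strand: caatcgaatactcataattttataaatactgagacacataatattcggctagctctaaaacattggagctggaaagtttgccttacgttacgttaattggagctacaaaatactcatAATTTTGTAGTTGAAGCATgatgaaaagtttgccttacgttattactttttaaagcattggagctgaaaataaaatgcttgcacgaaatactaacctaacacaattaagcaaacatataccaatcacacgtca
PASPA3 chr4:2224172-2224421, plus strand: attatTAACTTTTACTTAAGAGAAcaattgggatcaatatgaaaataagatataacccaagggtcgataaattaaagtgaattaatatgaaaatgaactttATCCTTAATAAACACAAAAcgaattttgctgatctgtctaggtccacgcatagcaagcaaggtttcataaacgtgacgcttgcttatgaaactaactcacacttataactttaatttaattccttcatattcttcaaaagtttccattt
BFN1 and RNS3 had 1 match each on the printed strand, at -139 to -121 and -133 to -115, counted from -1 at the base before the gene start. PASPA3 had a pair, at -245 to -227 and -149 to -131, both on the opposite strand, so its capitals match when read as the reverse complement. On either strand, SNBE was found upstream of 6 of the 9 members searched and of 42.6% of all 27437 genes with such a sequence. The 4 letters CACG, the core of many NAC sites, were found on either strand in 6 of 9 members and 45.7% of all genes. The tracheary element motif TERE, with the letters CTTNAAAGCNA, was found in 0 of 9 members and 0.368% of all genes. No SNBE match in these members overlapped a CACG. These matches describe the letters of the window and are not evidence of binding.

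Library totals were 17721913 to 24274637 counts in wild-type sorted endodermis, 7280556 to 13427477 in mutant sorted endodermis and 19812171 to 22722091 in whole roots, so that a library without a read of a gene still allowed 0.125 to 0.41 CPM, the read count scaled to the library total. That limit is 3 counts and covers counting error only. The rank correlation between replicates was lowest in the mutant sorted group (Spearman 0.918 to 0.928, against 0.974 to 0.983 in the other groups). MYB36 transcript was counted in all groups, at 122 ± 49.95 CPM in mutant and 179 ± 61.2 CPM in wild-type sorted cells and at 19.5 ± 1.48 and 34.9 ± 2.42 CPM in mutant and wild-type whole roots (SD, n = 3). Of 10 endodermis markers, 8 were higher and 0 lower in wild-type sorted cells than in wild-type roots, and 9 were higher and 0 lower in mutant sorted cells than in mutant roots. Of 12 epidermis and root hair markers, 6 were higher and 2 lower in wild-type sorted cells than in wild-type roots, and 0 were higher and 6 lower in mutant sorted cells than in mutant roots. Among all genes tested, 33.4% were higher and 35.4% lower in wild type, and 12.3% higher and 17.3% lower in the mutant. The epidermis and root hair markers summed to 330.1 to 408.8 CPM in wild-type sorted and 70.8 to 82.8 CPM in mutant sorted libraries. The sorted libraries thus held transcripts outside the endodermal list, and the bulk data cannot tell fewer cells of a type from less RNA per cell.

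In sorted endodermis, transcripts of 3 of the 4 regulators and 5 of the 6 cell death genes were lower in myb36-1 than in wild type, and none was higher. Among all 18318 genes tested in that comparison, 12.9% were lower and 15.6% higher (edgeR quasi-likelihood test, adjusted p under 0.05 after Benjamini-Hochberg adjustment over all genes tested). The median log2 fold change was -5.63 over the 10 members and -0.05 over all genes tested. The values of all 3 mutant libraries lay below those of all 3 wild-type libraries for the same 8 members, as they did for 26.2% of all genes tested. All 10 members passed the filter on low counts, which asks for 0.642 CPM in 3 libraries. BRN2, RNS3 and SCPL48 reached that in all 3 mutant libraries, whereas the other 7 passed only with the wild-type group. Apart from FEZ, these 7 are high in the wild-type group, so the count of 8 and the median are descriptions. The members were also chosen with earlier results of these data known.

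BRN1 (AT1G33280, chr1:12072611-12073965, plus strand, 3 exons) is a NAC factor of cap maturation. Its level, in CPM scaled by TMM factors over the 6 libraries of each tissue, was 54.2, 67.1 and 64.0 in the 3 wild-type sorted libraries and 0.586, 0.355 and 0.273 in the mutant ones. Every mutant library was far below every wild-type library, on 7, 3 and 2 reads against 1092, 1612 and 1155. The log2 fold change was -7.16 (edgeR adjusted p = 9.12e-05, SE 0.34).

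SMB (AT1G79580, chr1:29940803-29943713, minus strand, 4 exons) is the NAC factor required for lateral root cap death. It stood at 21.4, 34.0 and 36.2 CPM in wild-type sorted libraries and at 1.17, 0 and 0.137 CPM in the mutant ones. The groups did not overlap, and 14 of the 15 mutant reads came from replicate 1. SMB fell by 5.91 on the log2 scale (edgeR adjusted p = 0.00179, SE 0.80), and without mutant replicate 1 the log2 fold change was -8.75.

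BRN2 (AT4G10350, chr4:6415120-6416961, minus strand, 3 exons), the close relative of BRN1, stood at 6.95, 8.82 and 12.9 CPM in wild-type sorted libraries. In the mutant ones it was at 1.00, 1.06 and 4.24 CPM. The groups did not overlap, but mutant replicate 3 held 31 of the 52 mutant reads and lay nearest to wild type. BRN2 fell by 2.21 (edgeR adjusted p = 0.0366, SE 0.65), a smaller fitted change than for BRN1 or SMB, with no test between genes. Adjusted p values of edgeR were 0.0814, 0.110 and 0.149 when wild-type replicate 1, 2 or 3 was left out and 0.0742 without mutant replicate 2, which ended the call, and without mutant replicate 3 the log2 fold change was -3.21 (0.005).

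FEZ (AT1G26870, chr1:9312936-9315122, plus strand, 3 exons), the factor of cap-renewing divisions, was the regulator that did not pass the test. It was at 3.43, 3.12 and 4.65 CPM in wild-type and at 3.68, 0.237 and 12.0 CPM in mutant sorted libraries. The mutant values spread from below to above all wild-type values, with 44, 2 and 88 reads, and replicate 3 held 65.7% of them. The log2 fold change was 0.50 (edgeR adjusted p = 0.738, SE 0.98) and turned to -0.89 without mutant replicate 3.

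**Figure D1:**
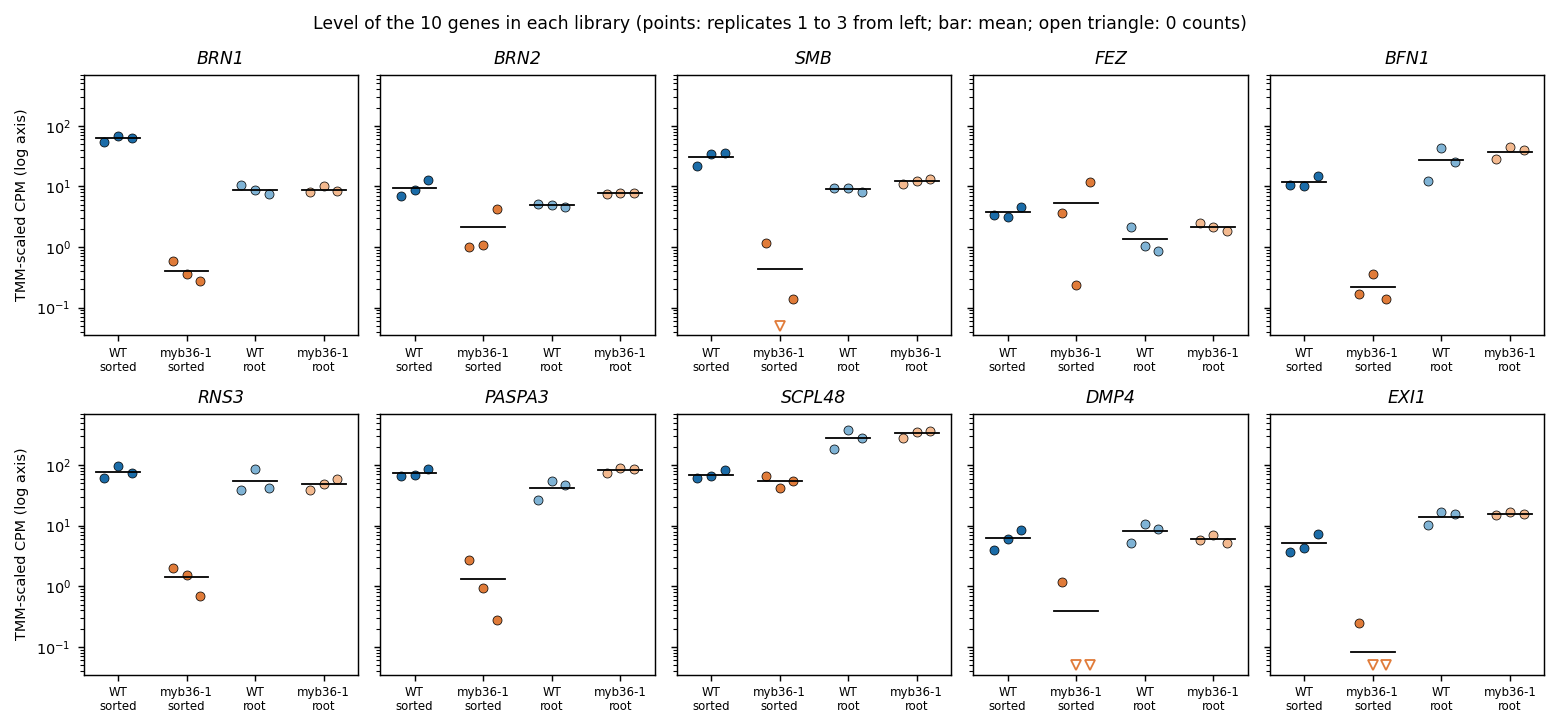
Level of each of the 10 genes in every library, in CPM scaled by TMM within each tissue on a log axis, for the 4 groups, with points for replicates 1 to 3, bars for group means and open triangles for libraries with 0 counts. In sorted endodermis 8 genes had all mutant points below all wild-type points, whereas FEZ and SCPL48 overlapped.

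Among the cell death genes, BFN1 encodes a nuclease that degrades RNA and DNA in dying cells, RNS3 a ribonuclease of the T2 type and PASPA3 an aspartic protease. These 3 genes had nearly equal fitted changes in sorted endodermis, with EXI1 and SMB near them at log2 fold changes of -5.56 and -5.91. BFN1 (AT1G11190, chr1:3750066-3752780, minus strand, 9 exons) was at 10.5, 10.3 and 14.7 CPM in wild-type sorted libraries and at 0.167, 0.355 and 0.137 CPM in mutant ones. Only 2, 3 and 1 reads remained in the mutant, and the log2 fold change was -5.71 (edgeR adjusted p = 6.57e-04, SE 0.56).

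RNS3 (AT1G26820, chr1:9292446-9293862, minus strand, 4 exons) was at 60.3, 95.04 and 73.8 CPM in wild-type sorted libraries and at 2.01, 1.54 and 0.683 CPM in mutant ones. Wild-type and mutant values stood well apart, and RNS3 fell by 5.70 (edgeR adjusted p = 2.12e-04, SE 0.40). PASPA3 (AT4G04460, chr4:2224422-2227874, plus strand, 13 exons) was at 67.1, 69.5 and 87.2 CPM in wild-type and at 2.76, 0.946 and 0.273 CPM in mutant sorted libraries. The groups did not overlap, mutant replicate 1 held 33 of the 43 reads, and PASPA3 fell by 5.70 (edgeR adjusted p = 7.15e-04, SE 0.59). Without mutant replicate 1 the log2 fold change of PASPA3 was -6.88. PASPA3 overlaps the antisense gene PMP22 (AT4G04470). The strand setting of the counting was not stated, so reads of the pair cannot be told apart.

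DMP4, a membrane protein gene of the DUF679 family, and EXI1, a cell death marker gene, were counted at low levels. DMP4 (AT4G18425, chr4:10181190-10182264, minus strand, 1 exon) was at 4.02, 5.99 and 8.42 CPM in wild-type sorted libraries and at 1.17, 0 and 0 CPM in mutant ones. All 14 mutant reads came from replicate 1, and DMP4 fell by 3.80 (edgeR adjusted p = 0.0438, SE 1.18). That call ended when wild-type replicate 1, 2 or 3 (adjusted p = 0.0965, 0.133 and 0.155 by edgeR) or mutant replicate 2 (0.0583) was left out, and without mutant replicate 1 no mutant read was left, so that the fitted log2 fold change of -9.59 depends on the prior count.

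EXI1 (AT2G14095, chr2:5932383-5933929, minus strand, 4 exons) was at 3.63, 4.33 and 7.42 CPM in wild-type sorted libraries and at 0.251, 0 and 0 CPM in mutant ones. The wild-type group held 311 reads and the mutant group 3, all in replicate 1, a ratio of 46.2 after scaling, with an exact 95% counting interval of 15.7 to 225. The test called EXI1 lower in the mutant (edgeR adjusted p = 0.00681). Without mutant replicate 1 no mutant read was left, and the fitted log2 fold change moved from -5.56 to -9.32.

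SCPL48 (AT3G45010, chr3:16466144-16468989, plus strand, 9 exons), which encodes a serine carboxypeptidase-like protein, was the cell death gene that did not pass. It was at 61.3, 65.7 and 81.6 CPM in wild-type and at 66.0, 42.3 and 53.8 CPM in mutant sorted libraries. The groups overlapped, and the log2 fold change was -0.36 (edgeR adjusted p = 0.284, SE 0.23). SCPL48 overlaps the antisense gene AT3G45020, with the same limit on strand as for PASPA3.

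The authors' deposited table of tests for sorted endodermis holds 1 FPKM per genotype. That table gave FPKM of 10.3 in wild type and 0.295 in the mutant for BFN1 (q = 0.0388), 87.4 and 2.20 for RNS3 (q = 2.79e-05) and 43.7 and 1.26 for PASPA3 (q = 3.24e-05). These 3 genes passed a q of 0.05 there. In the same deposited table by the authors, BRN2, EXI1 and DMP4 were lower in the mutant without passing (q = 0.136, 0.163 and 0.325). FEZ and SCPL48 were not lower there and did not pass. Their wild-type and mutant FPKM were 3.19 and 4.81 for FEZ (q = 0.618) and 43.2 and 43.6 for SCPL48 (q = 0.989). SMB had no test result in the authors' deposited table, with a FAIL status, and BRN1 was merged with its neighbour AT1G33290 under the same status.

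In whole roots the same genes behaved otherwise: 2 of the 10 members, BRN2 and PASPA3, were higher in myb36-1 than in wild type, none was lower and 8 did not pass. Among the 19624 genes tested, 3.25% were higher and 2.85% lower (edgeR adjusted p under 0.05). The median log2 fold change was 0.34 over the members and 0.01 over all genes tested. Mutant values lay above all wild-type values for 3 members, BRN2, SMB and PASPA3, as they did for 12.6% of all genes tested.

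BRN2 was at 5.05, 5.01 and 4.50 CPM in wild-type roots and at 7.60, 7.81 and 7.87 CPM in mutant roots. Both groups were tight and apart, and BRN2 rose by 0.68 on the log2 scale (edgeR adjusted p = 0.0256, SE 0.14). PASPA3 was at 26.4, 54.0 and 47.1 CPM in wild-type roots and at 74.0, 88.3 and 86.2 CPM in mutant roots. Wild-type replicate 1 was the lowest of all, and PASPA3 rose by 0.96 (edgeR adjusted p = 0.0368, SE 0.22). In the authors' deposited table PASPA3 was likewise higher in mutant roots, at an FPKM of 48.8 against 25.3 (q = 2.58e-05). BRN2 was higher there without passing, at an FPKM of 8.53 in mutant and 5.38 in wild-type roots (q = 0.398).

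Both calls were sensitive to the libraries used. They ended when wild-type replicate 3 was left out (edgeR adjusted p = 0.119 for BRN2 and 0.102 for PASPA3) and without mutant replicate 1, 2 or 3 (0.0807, 0.101 and 0.0868 for BRN2, and 0.0782, 0.120 and 0.147 for PASPA3). In 1 fit of all 12 libraries, in which sorted and whole-root libraries share an estimate of the spread, the adjusted p was 1 for BRN2 and 0.529 for PASPA3. Without wild-type replicate 1, 4 members were called, with FEZ higher (edgeR adjusted p = 0.0292) and DMP4 lower (0.0393) beside BRN2 and PASPA3.

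SMB was at 9.49, 9.32 and 7.97 CPM in wild-type roots and at 10.9, 12.1 and 13.5 CPM in mutant roots. The groups did not overlap, but the change did not pass (log2 0.44, edgeR adjusted p = 0.116, SE 0.14). The authors' deposited table gave SMB an FPKM of 7.41 in wild-type and 9.72 in mutant roots with q = 1.38e-04. BRN1, the member with the lowest fitted change in sorted cells, was at 10.6, 8.62 and 7.37 CPM in wild-type and at 8.15, 10.08 and 8.30 CPM in mutant roots. Its values overlapped, with a log2 fold change of -0.01 (edgeR adjusted p = 0.991, SE 0.17).

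FEZ had the lowest levels in roots, 2.13, 1.03 and 0.844 CPM in wild type and 2.45, 2.17 and 1.81 CPM in the mutant. The groups overlapped through wild-type replicate 1 (log2 0.67, edgeR adjusted p = 0.339, SE 0.34). The other cell death genes overlapped between genotypes as well. BFN1 ranged over 12.5, 42.9 and 25.7 CPM in wild-type roots and over 27.9, 44.7 and 39.4 CPM in mutant roots (log2 0.47, edgeR adjusted p = 0.549, SE 0.36). RNS3 was at 38.8, 85.0 and 42.4 CPM in wild type and at 38.3, 49.3 and 58.8 CPM in the mutant (log2 -0.18, edgeR adjusted p = 0.797, SE 0.28). The wild-type spread of both genes was wide, with replicate 2 the highest.

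SCPL48 was at 181.6, 376.4 and 282.8 CPM in wild-type and at 278.5, 356.2 and 363.1 CPM in mutant roots, with an edgeR adjusted p of 0.633. DMP4 was at 5.27, 10.7 and 8.68 CPM in wild type and at 5.70, 7.11 and 5.25 CPM in the mutant, with an edgeR adjusted p of 0.390. EXI1 was at 10.3, 16.7 and 15.3 CPM in wild type and at 14.8, 16.8 and 15.4 CPM in the mutant, with an edgeR adjusted p of 0.718. All 3 genes had overlapping groups.

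The cell death genes and the regulators had different orders among the wild-type root libraries. All 6 cell death genes were lowest in replicate 1 and highest in replicate 2, whereas all 4 regulators were highest in replicate 1 and lowest in replicate 3. The summed level of 9 xylem markers was 602.8 CPM in replicate 1, 829.2 in replicate 2 and 760.8 in replicate 3, and that of 12 epidermis and root hair markers 254.3, 462.8 and 319.5 CPM. Both lists thus had the order of the cell death genes. So did 10 endodermis markers (741.0, 959.7 and 849.2 CPM) and 14 other cell death and protease genes (947.2, 1306 and 1132 CPM). The 9 other root cap genes had it too (230.7, 264.6 and 257.8 CPM), whereas 19 relatives of the cell death members were highest in replicate 3 (846.0, 996.3 and 1043 CPM). The order was not particular to 1 list, and the part of any cell type in it was not tested.

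**Figure D2:**
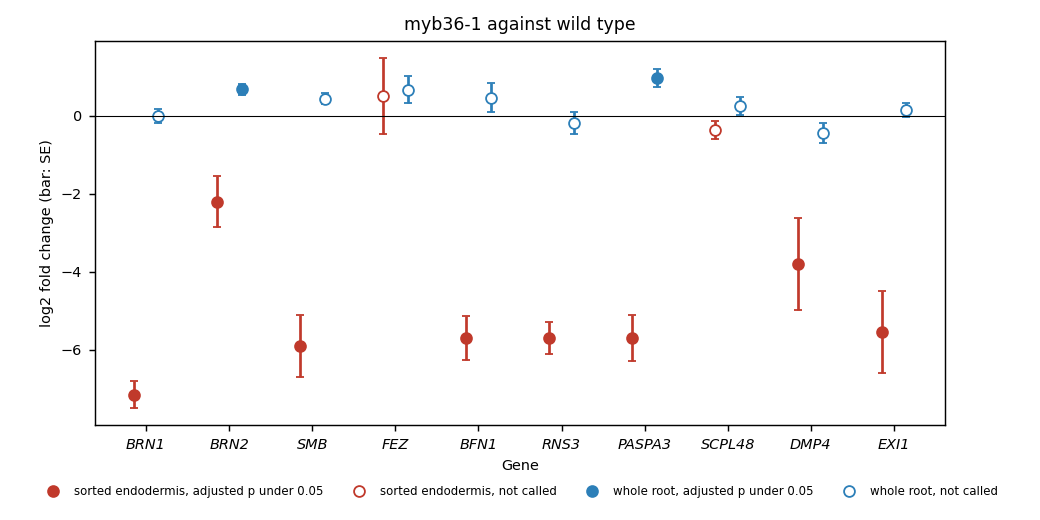
Log2 fold change of myb36-1 against wild type for each gene, in sorted endodermis and in whole root, with bars of 1 SE and filled points for an edgeR adjusted p under 0.05. In sorted endodermis 8 genes lie between -7.16 and -2.21, whereas in whole root all 10 lie between -0.45 and 0.96.

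The genotype effect differed between sorted endodermis and whole root for 8 of 10 members, in each case lower in the sorted cells, against 14.6% of 20302 genes tested for that direction (edgeR interaction term over 12 libraries, adjusted p under 0.05). Among the regulators the difference in log2 fold change, sorted minus whole root, was -7.18 for BRN1 (edgeR adjusted p = 4.36e-07), -6.35 for SMB (8.89e-05) and -2.93 for BRN2 (0.00557). Among the cell death genes it was -6.66 for PASPA3 (edgeR adjusted p = 1.75e-05), -6.22 for BFN1 (8.71e-05), -5.69 for EXI1 (2.63e-04), -5.53 for RNS3 (2.27e-05) and -3.30 for DMP4 (0.0272). FEZ and SCPL48 did not pass, at -0.20 (edgeR adjusted p = 0.914) and -0.63 (0.202). Members with few mutant sorted reads passed the filter on low counts only with the other groups, where they are higher, so the count of 8 is a description.

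Without mutant sorted replicate 1 the difference was -9.27 for SMB and -7.88 for PASPA3, and without mutant sorted replicate 3 it was -3.91 for BRN2. Without mutant sorted replicate 1, which held all mutant sorted reads of EXI1 and DMP4, their fitted differences were -9.87 and -9.54 and depended on the prior count. The DMP4 interaction was weakly held. It was lost without wild-type sorted replicate 2 or 3 (edgeR adjusted p = 0.0528 and 0.0660), wild-type root replicate 1 or 3 (0.0681 and 0.0619) or mutant root replicate 1, 2 or 3 (0.0529, 0.0650 and 0.0512).

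Within wild type, all 4 regulators and 1 cell death gene, PASPA3, were higher in sorted endodermis than in whole roots, and the cell death genes BFN1, EXI1 and SCPL48 were lower. Of 19747 genes tested 33.4% were higher and 35.4% lower, so that shares of members near those values say little about the members. What is due to the cell type cannot be told apart here from protoplasting, the sort or the kit used for RNA.

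BRN1 rose by 3.03 on the log2 scale in the sorted cells (edgeR adjusted p = 6.15e-07, SE 0.17), from 6.93 to 9.91 CPM in roots to 58.6 to 72.3 CPM on a scale set by all 12 libraries. SMB rose by 2.01 (edgeR adjusted p = 2.35e-05, SE 0.21), FEZ by 1.70 (SE 0.37, 0.00257) and BRN2 by 1.21 (SE 0.24, 0.00152). For all 4 regulators the sorted values lay above all root values, as they did for PASPA3 and for 35.8% of all genes tested. FEZ did not pass when all 12 libraries were fitted at once (edgeR adjusted p = 0.0999).

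The cell death genes did not move as a group with sorting. PASPA3 rose by 1.05 (edgeR adjusted p = 0.00311, SE 0.24), while the log2 fold change of RNS3 was 0.70 (SE 0.29, 0.0519) and that of DMP4 -0.19 (SE 0.32, 0.619). SCPL48 fell by 1.78 (edgeR adjusted p = 1.32e-04, SE 0.24), EXI1 by 1.23 (SE 0.29, 0.00364) and BFN1 by 0.96 (SE 0.37, 0.0406). SCPL48 and EXI1 had sorted values below all root values, as 37.9% of all genes tested had, whereas BFN1 overlapped through the lowest root library.

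The calls of BFN1 and RNS3 turned on single libraries. The BFN1 call was lost without wild-type sorted replicate 1 or 2 (edgeR adjusted p = 0.117 and 0.123), wild-type root replicate 2 or 3 (0.190 and 0.0663) and with limma-voom (0.0973). RNS3 became a call without wild-type root replicate 2 (log2 1.14, edgeR adjusted p = 8.87e-04) or wild-type sorted replicate 1 (0.0447). RNS3 was also called without the low-count filter (edgeR adjusted p = 0.0242), with DESeq2 (adjusted p = 0.0263) and with limma-voom (0.0322).

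Beside these values, 8 of the 8 xylem markers that were tested were lower in wild-type sorted cells than in wild-type roots, with a median log2 fold change of -5.19. Among all genes tested, 35.4% were lower there. Their summed level was 11.8 to 24.6 CPM in wild-type sorted, 8.75 to 19.5 CPM in mutant sorted, 602.8 to 829.2 CPM in wild-type root and 539.4 to 669.8 CPM in mutant root libraries. VND6, a defining xylem factor, was at 0 counts in all wild-type sorted libraries. The part of xylem RNA in the whole-root levels of the cell death genes was not tested.

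Within myb36-1, 7 members were lower in sorted endodermis than in whole roots and none was higher, against 17.3% lower and 12.3% higher among 19347 genes tested. The 9 members other than FEZ had sorted values below all root values, as 31% of all genes tested had. BRN1, BFN1 and EXI1 reached 10 counts in 0 mutant sorted libraries and SMB, PASPA3 and DMP4 in 1, against 3 mutant root libraries each. Such members passed the filter on low counts only with the root group, where they are high, so these counts of members are descriptions. BFN1 fell by 7.17 (edgeR adjusted p = 1.28e-04, SE 0.44), EXI1 by 6.93 (SE 0.78, 0.00102) and PASPA3 by 5.64 (SE 0.59, 7.52e-04). BRN1, which was higher in sorted cells than in roots of wild type, was lower in those of the mutant, by a log2 fold change of -4.18 (edgeR adjusted p = 0.00138, SE 0.51).

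RNS3 fell by 4.86 (edgeR adjusted p = 2.96e-04, SE 0.40), SMB by 4.42 (SE 0.94, 0.0117) and SCPL48 by 2.42 (SE 0.23, 4.99e-04). SCPL48 was the member with lower sorted than root values in both genotypes and no called genotype effect in either tissue. BRN2 at -1.70 (edgeR adjusted p = 0.0861, SE 0.64), DMP4 at -3.57 (SE 1.18, 0.0589) and FEZ at 1.5 (SE 1.04, 0.321) did not pass.

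The calls of SMB, BRN2, DMP4 and FEZ changed with single libraries. SMB was lost without mutant root replicate 1, 2 or 3 (edgeR adjusted p = 0.0520, 0.0533 and 0.0626). BRN2 became a call without mutant sorted replicate 3 (log2 -2.72, edgeR adjusted p = 0.00258), and DMP4 without mutant sorted replicate 1 (0.00167) or 3 (0.0486). BRN2 and DMP4 were also called lower with DESeq2 (adjusted p = 0.0338 and 0.0128), with limma-voom (0.0232 and 0.00610) and when all 12 libraries were fitted at once (0.0106 and 0.00311), and DMP4 with all libraries thinned to the smallest total (0.0437). FEZ was called higher without mutant sorted replicate 2 (log2 2.07, edgeR adjusted p = 0.0349). The log2 fold changes of SMB and PASPA3 were -7.22 and -6.82 without mutant sorted replicate 1. EXI1 and DMP4 had no mutant sorted read left then, and their fitted values of -10.87 and -9.49 depended on the prior count. The log2 fold change of SMB was -3.82 without mutant sorted replicate 2.

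**Figure D3:**
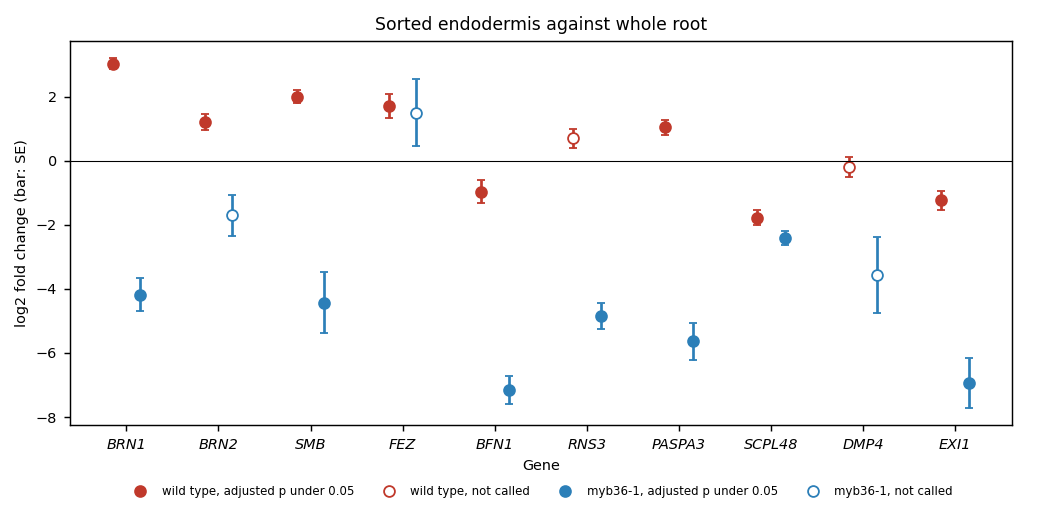
Log2 fold change of sorted endodermis against whole root for each gene, in wild type and in myb36-1, with bars of 1 SE and filled points for an edgeR adjusted p under 0.05. The 4 regulators lie between 1.21 and 3.03 in wild type, and in myb36-1 all genes except FEZ lie below 0.

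Scaled by exon length (RPKM), so that genes can be compared with each other, SCPL48 had the highest mean level in wild-type roots at 141 ± 48.7, followed by RNS3 at 46.1 ± 21.2, PASPA3 at 21.6 ± 7.28, BFN1 at 19.8 ± 11.1 and EXI1 at 11.2 ± 2.67 RPKM (SD, n = 3). DMP4 at 7.15 ± 2.39, BRN1 at 7.03 ± 1.28, SMB at 3.98 ± 0.352, BRN2 at 3.31 ± 0.192 and FEZ at 0.838 ± 0.436 RPKM came after them. All libraries of SCPL48 lay above those of the other members, and those of RNS3 above the rest. In that order, the neighbours from PASPA3 to BRN1 overlapped in range, whereas SMB, BRN2 and FEZ each lay apart from the neighbour above. All 6 cell death genes stood above the 4 regulators by mean level in wild-type roots, with DMP4 and EXI1 each overlapping BRN1.

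In wild-type sorted endodermis the order was different. RNS3 was at 73.5 ± 16.7, BRN1 at 56.6 ± 6.13, PASPA3 at 43.9 ± 6.65 and SCPL48 at 40.4 ± 6.38 RPKM, and the lowest RNS3 library lay within the range of BRN1. SMB at 15.7 ± 4.13, BFN1 at 10.05 ± 2.15, BRN2 at 7.54 ± 2.43, DMP4 at 6.19 ± 2.24, EXI1 at 4.71 ± 1.88 and FEZ at 2.71 ± 0.601 RPKM followed. Neighbours in this order overlapped in range, with SCPL48 and SMB as the exception. BRN1 thus ranked 2 of 10 among members in wild-type sorted cells and 7 of 10 in wild-type roots.

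In mutant sorted cells SCPL48 was first at 30.8 ± 6.62 RPKM, followed by FEZ at 3.78 ± 4.33 and BRN2 at 1.63 ± 1.43 RPKM. The other 7 members had means from 0.0749 RPKM for EXI1 to 1.33 RPKM for RNS3. In mutant roots the order began with SCPL48 at 166.5 ± 23.8, PASPA3 at 41.9 ± 3.98 and RNS3 at 40.5 ± 8.52 RPKM, of which the last 2 overlapped, and ended with FEZ at 1.34 ± 0.199 RPKM.

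Other genes of the same pathways gave a mixed picture in sorted endodermis. Their lists were written from background knowledge but with earlier results of these data known, so counts over them are descriptions. Among all genes tested between genotypes, 12.9% were lower and 15.6% higher in mutant sorted cells, and 2.85% lower and 3.25% higher in mutant roots. Of 9 other root cap genes, 3 were lower and 1 higher in the mutant, with a median log2 fold change of -1.55. Wall enzymes are encoded by the 3 that fell, which were CEL5, a cellulase gene, from 94.3 ± 30.7 to 5.92 ± 5.08 CPM (edgeR adjusted p = 0.00252), CEL3 from 3.63 ± 1.45 to 0.0788 ± 0.137 CPM (0.0119) and the polygalacturonase gene RCPG from 3.83 ± 2.31 to 0.165 ± 0.217 CPM (0.0175). The CEL3 call was lost without wild-type sorted replicate 2 or 3 (edgeR adjusted p = 0.0756 and 0.0605) and the RCPG call without wild-type sorted replicate 1, 2 or 3 (0.0504, 0.0721 and 0.108). Single mutant libraries also moved the sizes. CEL3 had 230 wild-type and 2 mutant reads, a ratio of 51.2 after scaling with an exact 95% counting interval of 14 to 426. Both mutant reads were in replicate 2, without which its log2 fold change went from -5.46 to -8.89, and it was -4.79 without replicate 1. Without mutant replicate 3 the log2 fold change went from -4.58 to -6.11 for RCPG and from -4.02 to -4.97 for CEL5, and RCPG was at -3.96 without wild-type replicate 3. Summed over the list, these 9 genes stood at 176.8 to 256.1 CPM in wild-type sorted, 56.2 to 126.6 CPM in mutant sorted and 221.5 to 264.6 CPM in whole-root libraries. In whole roots 1 of the 9 was lower in the mutant and 8 did not pass.

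Of 14 other cell death and protease genes, 10 were tested in sorted cells, with 3 lower, 3 higher and 4 not called and a median log2 fold change of -0.25. The summed level of this list did not fall with them, at 536.1 to 755.6 CPM in wild-type and 492.6 to 1099 CPM in mutant sorted libraries. By the rule of largest change, only the 3 lower genes are named below. MC9, a metacaspase gene active in xylem cell death, fell from 83.1 ± 20.3 to 1.76 ± 2.39 CPM (log2 -5.43, edgeR adjusted p = 0.00261). Mutant replicate 1 held 54 of its mutant reads, and without it the log2 fold change was -7.75. CEP2, a papain-type endopeptidase gene, fell from 240.8 ± 75.9 to 24.3 ± 0.262 CPM (log2 -3.31, edgeR adjusted p = 3.68e-04). MC5, a metacaspase gene that overlaps the antisense gene AT1G09985, fell by 2.96 (edgeR adjusted p = 0.0144), a call lost without wild-type sorted replicate 2 or 3 (0.0541 and 0.0608).

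Of 19 relatives of the cell death members, 10 were tested in sorted cells, with 3 lower, 1 higher and 6 not called. ENDO3, a relative of BFN1, had 228 reads in wild-type sorted libraries and 0 in mutant ones, at least 33.9-fold lower against a floor of 3 counts over the group (edgeR adjusted p = 0.00657 and 0.0491 without wild-type sorted replicate 2). ENDO5, another relative of BFN1, fell from 28.9 ± 2.86 to 6.69 ± 0.467 CPM (edgeR adjusted p = 0.00107). SCPL49, a relative of SCPL48, rose from 23.9 ± 1.37 to 48.6 ± 8.74 CPM (edgeR adjusted p = 0.0112), a call lost without wild-type sorted replicate 1, 2 or 3 (0.0578, 0.0574 and 0.0622). In whole roots 0 of the 11 relatives tested were called.

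Markers of the epidermis and of the endodermis moved with the same comparison, in which 12.9% of all genes tested were lower and 15.6% higher. Of 12 epidermis and root hair markers, 10 were lower in mutant than in wild-type sorted cells and 2 did not pass, with a median log2 fold change of -2.67. WER, a transcription factor gene of the epidermis and lateral root cap, was at 1.06 ± 1.64 CPM in the mutant and 55.1 ± 13.0 CPM in wild type (edgeR adjusted p = 0.00342). Its log2 fold change was -5.74, and -8.95 without mutant replicate 2, which held 25 mutant reads, or -5.11 without mutant replicate 1. The summed epidermal level was 330.1 to 408.8 CPM in wild-type sorted, 70.8 to 82.8 CPM in mutant sorted, 254.3 to 462.8 CPM in wild-type root and 416.8 to 515.7 CPM in mutant root libraries. In whole roots 1 of the 12 was higher and none lower in the mutant, against 3.25% higher and 2.85% lower among all genes tested. Of 6 xylem markers tested in sorted cells, none was called. Of 10 endodermis markers, 7 were lower, 2 higher and 1 not called in mutant sorted cells, with a summed level of 2298 to 3424 CPM in wild type and 1441 to 1690 CPM in the mutant. The part of epidermal or root cap cells in the sorted material in the lower member levels was not tested.

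**Figure D4:**
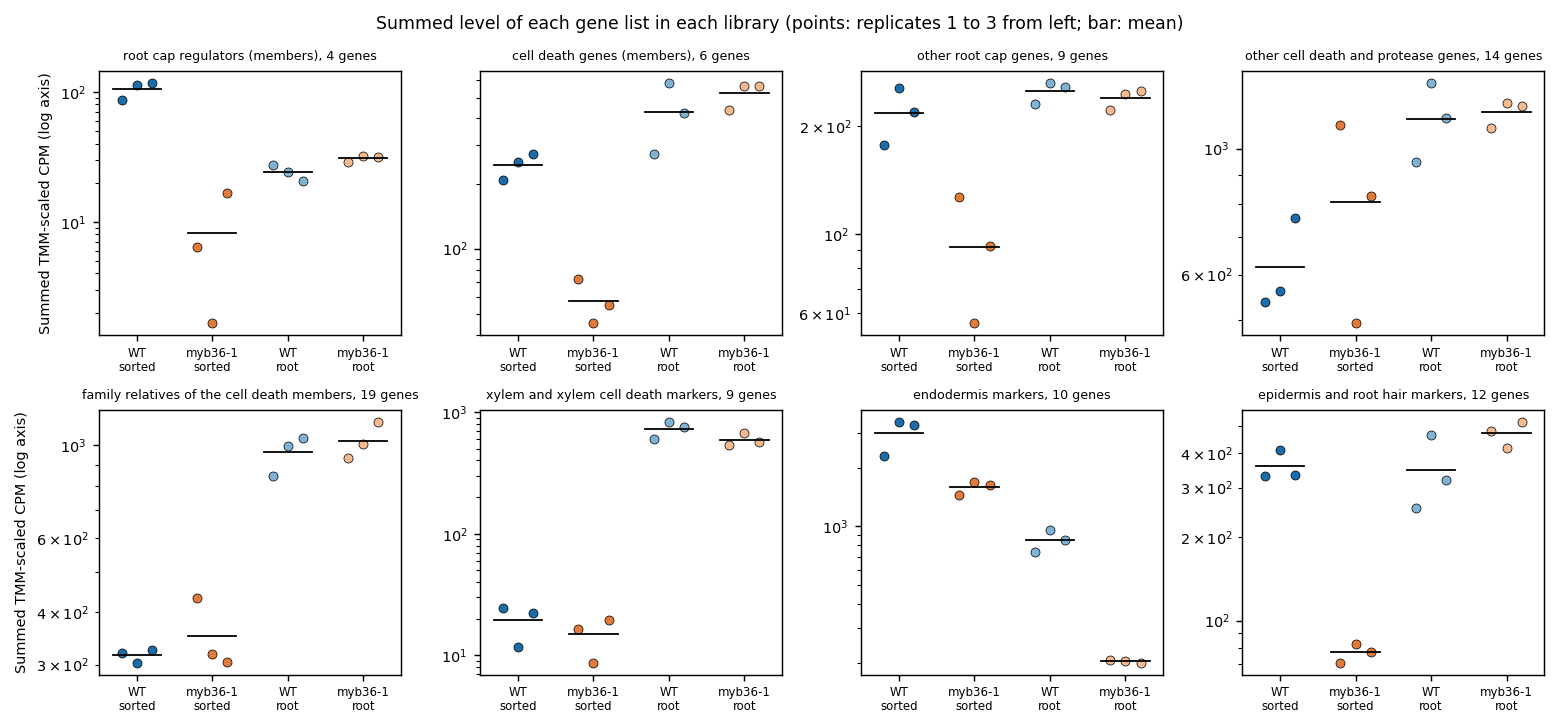
Summed TMM-scaled CPM (log axes, which differ between panels) of each gene list in every library, with points for replicates 1 to 3 and bars for group means. The 4 regulators sum to 86.0 to 117.7 CPM in wild-type sorted and 1.66 to 16.7 CPM in mutant sorted libraries, and the epidermis and root hair markers to 330.1 to 408.8 and 70.8 to 82.8 CPM.

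The genes whose pattern over the 12 libraries was most like that of BRN1, by the root mean square difference of centred log2(CPM + 0.5) among 19673 genes, were EDA36 (0.377), AT5G58784 (0.409), HMT3 (0.493), CYP705A2 (0.513) and AT3G04320 (0.545). The median difference over all these genes was 2.25. SMB was in place 16 (0.632), RNS3 in place 109 and PASPA3 in place 231. The other members were further off, with DMP4 in place 380, BRN2 in 649, EXI1 in 1742 and BFN1 in 1762. SCPL48 in place 10715 (2.29) and FEZ in place 11412 (2.33) lay near the median of all genes. For BFN1 the most alike were RHS14 (0.355), CYP705A5 (0.377), SUS3 (0.42), RHS13 (0.443) and CIPK17 (0.443), with a median of 2.22 over all genes. EXI1 was in place 10 for BFN1 (0.485), PASPA3 in place 96 and RNS3 in place 113. DMP4 was in place 267, SMB in 747, SCPL48 in 1214, BRN2 in 2627, BRN1 in 3070 and FEZ in 17466 (2.72). These ranks describe 12 libraries that share 4 groups and carry no test.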

How the data were processed

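The authors deposited raw read counts per gene for the 12 libraries, without normalization. The authors' deposited tables of gene tests hold 1 FPKM per genotype and a q-value, per the file headers. TopHat2, SAMtools, Cufflinks, Cuffdiff and HTSeq with build TAIR10 are named in the submitters' processing notes. Roles and versions of these tools, and the strand setting of counting, were not given in the sources used here. RNA was extracted with different kits for whole roots and sorted cells, and libraries came from a strand-specific kit, per the labels' protocols.

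The quasi-likelihood test of edgeR 4.0.16 (R 4.3.3) was applied to the counts, with TMM scaling, the filterByExpr filter set by group at a minimum count of 10, and Benjamini-Hochberg adjustment over all genes tested. The procedure was tested on simulated data. Of 100 genes given a log2 change of 1, it called 13 between genotypes in sorted cells, 89 in whole roots and 2 for the interaction. For sorted cells against roots it called 76 in wild type and 9 in the mutant. At a log2 change of 2 these numbers were 72, 100, 67, 99 and 73. A gene not called in a comparison with mutant sorted libraries is thus not shown to be unchanged. The 5 comparisons were the genotypes in each tissue, their interaction over all 12 libraries, and sorted cells against whole roots in each genotype. The threshold for a call was an adjusted p of 0.05. SE is the absolute log2 fold change divided by the square root of F. CPM were scaled by TMM over the 6 libraries of a tissue, RPKM over all 12. P-values measure the spread between the libraries that the labels call biological replicates. Replicate pairs differed by more than sampling noise. Alternatives were RLE size factors, no filter, DESeq2 1.42.0, limma-voom (limma 3.58.1), a replicate block, 1 fit of all 12 libraries, thinning to the smallest total and leaving out each replicate.

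Gene positions, exon counts (transcripts merged) and upstream sequences come from RefSeq TAIR10.1. Upstream sequence was searched for 9 members, and that of BRN1 is not reported here. No 50-base stretch of a member's exons occurs elsewhere in the nuclear genome. The members and the gene lists were chosen with earlier results of these data known. All members are named with values in every library. From each other list, up to 3 called genes with the largest change in sorted cells and a mean of at least 1 CPM in a group could be named. For likeness, the 5 closest genes to BRN1 and to BFN1 were named, with a pseudocount of 0.5 CPM. The authors' normalized counts were not used.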

Additional observations from a re-analysis of the deposited data

Results flagged for a closer look

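The genotype effect on the genes below differed between sorted endodermis and whole root by the edgeR interaction term. Values are differences in log2 fold change, sorted minus whole root. Among the root cap regulators and cell death genes they were -7.18 for BRN1, -6.66 for PASPA3, -6.35 for SMB, -6.22 for BFN1, -5.69 for EXI1, -5.53 for RNS3, -3.30 for DMP4 and -2.93 for BRN2. Without mutant sorted replicate 1 they were -9.87 for EXI1 and -9.54 for DMP4, with no mutant sorted read left, -9.27 for SMB and -7.88 for PASPA3. BRN2 was at -3.91 without mutant sorted replicate 3.

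Among the other listed genes named by the rule on fold change, the difference was -5.59 for CEL3, -4.42 for RCPG and -3.08 for CEL5 (root cap). Without mutant sorted replicate 3 it was -5.91 for RCPG and -4.01 for CEL5, without wild-type sorted replicate 3 it was -3.84 for RCPG, and CEL3 ranged from -9.30 without mutant sorted replicate 2 to -4.88 without mutant sorted replicate 1. It was -5.43 for MC9, -3.67 for CEP2 and -3.54 for MC5 (cell death and proteases), with MC9 at -7.80 without mutant sorted replicate 1, and -2.08 for ENDO5 and -9.86 for ENDO3 (relatives of BFN1). The ENDO3 value depends on the prior count, since mutant sorted libraries held 0 reads of it. SCPL49 was the only gene flagged here with a positive difference, at 0.723 (edgeR adjusted p = 0.0463), and that call was lost in 13 of 18 alternatives (adjusted p 0.017 to 0.127 over all 18). Of the epidermis and root hair markers, the difference was -5.71 for WER, -4.60 for MYB23 and -4.61 for EXPA18. Without mutant sorted replicate 2 these were -8.90, -6.29 and -5.33, and WER was at -5.06 without mutant sorted replicate 1. Groups of 3 libraries were not tested for outlying values.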

How the results depend on the processing

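In sorted endodermis 6 to 8 members were called under every alternative, and BRN1, SMB, BFN1, RNS3, PASPA3 and EXI1 kept their calls in all 13. In 1 fit of all 12 libraries, 9251 genes were called between genotypes in sorted cells, 142 in whole roots and 9057 between mutant sorted cells and roots, and 0 members in whole roots. Leaving out each replicate in turn gave 2236 to 7017 genes in sorted cells, 594 to 1876 genes and 0 to 4 members in whole roots, and 2905 to 8557 genes between mutant sorted cells and roots. All other counts stayed within 1.5 times the reported ones.

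Changes of direction occurred in values that did not pass the test. FEZ in sorted cells was at -0.63 with limma-voom, -0.35 with the replicate block and as low as -0.89 without 1 replicate (highest 1.05). BRN1 in whole roots was at 0.00116 with limma-voom, 0.00336 with the replicate block and -0.12 to 0.13 without 1 replicate. Without 1 replicate the range was -0.40 to 0.27 for RNS3, -0.00596 to 0.52 for SCPL48 and -0.0517 to 0.29 for EXI1 in whole roots. It was -1.57 to 0.35 for the FEZ interaction, and -0.477 to 0.0477 for DMP4 between wild-type sorted cells and roots. The cause was not tested.

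Same-numbered samples of different groups did not deviate together throughout (correlations of deviations -0.152 to 0.291 over 15964 genes), so the numbers were not taken as pairs. With the replicate block, genes called were 4684 (sorted), 1512 (root), 5072 (interaction), 13564 (wild-type sorting) and 3928 (mutant sorting), and members 8, 2, 7, 9 and 7. DMP4 lost its interaction call (adjusted p = 0.0553) and RNS3 gained one in wild-type sorting (0.00173). Depth limits EXI1, BFN1, BRN1, DMP4 and SMB most, with 3, 6, 12, 14 and 15 reads in the mutant sorted group.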
